A study of Homo sapiens with 12 samples.

Results

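The miR-21 gene gives a pair of mature microRNAs, the guide strand miR-21-5p and the passenger strand miR-21-3p, which come from the 5p and the 3p arm of the same hairpin. Both were taken by name from a table of small RNA counts, so they are 2 members of 1906 annotated mature names, and of 2909 entries once predicted ones are included. In the table they are hsa-miR-21-5p and hsa-miR-21-3p, and the prefix is left out from here on except beside their counts. The study put a histone deacetylase inhibitor on gastric cancer cells and asked which microRNAs it changes. HGC-27 and AGS are established human gastric cancer cell lines, and the inhibitor was SAHA, also called vorinostat. The 4 groups were HGC-27 with 5 µM SAHA, HGC-27 with the solvent DMSO, AGS with 5 µM SAHA and AGS with DMSO, each for 24 h and each with 3 libraries, 12 in all. Both lines grew in RPMI 1640 with serum, and the labels name no altered allele. The labels number the replicates without giving their cultures, so p-values measure the spread between these libraries, which may be technical. In bulk RNA, fewer cells of a type and less RNA per cell cannot be told apart.

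MicroRNA genes are transcribed into long RNAs that Drosha and Dicer cut into a short duplex. Normally the guide strand stays in an Argonaute protein and pairs with target mRNAs through its seed, and the passenger strand is mostly discarded. miR-21-5p is raised in many solid tumours, gastric cancer among them, and is known to repress the tumour suppressor PDCD4. STAT3 and AP-1 are known to drive transcription of its gene.

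Positions and sequences show where both strands come from and which other microRNA could share targets with the guide. In the RefSeq tables of GRCh38.p14, the hairpin mir-21 has 72 bases at chr17:59841266-59841337 on the plus strand. In the GENCODE 29 annotation it lies within the protein-coding gene VMP1, on the same strand, in an exon of a VMP1 transcript that retains an intron. The hairpin is printed with the bases of miR-21-5p in capitals, at hairpin positions 8 to 29, and the mature sequences that follow it with the seed, bases 2 to 8, in capitals. A mature sequence was matched for 1 of the 2 members, the guide.
mir-21 hairpin: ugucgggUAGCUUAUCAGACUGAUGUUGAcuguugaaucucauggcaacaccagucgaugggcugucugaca
miR-21-5p: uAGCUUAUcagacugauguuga
miR-590-5p: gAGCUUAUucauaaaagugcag
Among 2545 RefSeq mature sequences, miR-590-5p, at chr7:74191213-74191234 on the plus strand, was the only annotated name of the count table that shared this seed. Its counts were at most 17 in any library. It averaged 2.04 ± 0.741 CPM (counts per 1000000, scaled by edgeR's TMM factors) with SAHA and 2.64 ± 1.14 CPM with DMSO in HGC-27, and 2.10 ± 1.13 CPM with SAHA and 2.36 ± 2.37 CPM with DMSO in AGS (SD, n = 3 each). Changes of this sharer were not detectable at such counts, with edgeR quasi-likelihood adjusted p = 0.770 in HGC-27 and 0.857 in AGS. The lowest count of miR-21-5p in any library was 628715.

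The libraries held 2665109 to 6525388 counts and listed 735 to 940 annotated names each. Pearson r of log2 CPM between replicates was 0.973 to 0.995, except for HGC-27 SAHA 2, which stood apart from both its replicates (0.942 and 0.957). The results on both strands, their ratio and the share are also given without HGC-27 SAHA 2. So are the microRNAs of shared inducers and the neighbours of MIR21 where its removal changed a call. The calls of the hairpins with the largest arm shifts were checked in the same way. Hairpins named only for being called in both lines were counted again without it, but not read one by one. Counts over all minor and major arms are given with it only. Summed epithelial markers (5 of 5 in the table) were 6298 to 6476 CPM in HGC-27 with SAHA and 1309 to 2116 CPM with DMSO. In AGS they summed to 5195 to 6356 CPM with SAHA and 2736 to 7158 CPM with DMSO. These sums were mostly miR-192-5p, which in HGC-27 averaged 5674 CPM with SAHA and 1362 CPM with DMSO. In that line miR-200c-3p went the other way, averaging 71.3 CPM with SAHA and 100.3 CPM with DMSO. The other epithelial markers averaged higher with SAHA in HGC-27, but only miR-192-5p and miR-194-5p were called. No epithelial marker was called in AGS. The 4 blood cell markers summed to between 39.9 and 420.2 CPM over all groups, with miR-223-3p at 0 in AGS with DMSO, and the 4 fibroblast and muscle markers to between 78.9 and 3478 CPM. Of the blood cell markers, miR-144-5p was called higher with SAHA in HGC-27 (log2 fold change 3.44, edgeR adjusted p = 0.00681). It averaged 6.64 CPM with SAHA and 0.553 CPM with DMSO there. No other tested marker of either list was called with SAHA in either line. The calls of markers were read with all 12 libraries only. The part of any of these markers in the results on miR-21 was not tested.

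miR-21-5p was the most abundant microRNA in each of the 12 libraries, and its level was lower in every SAHA library than in any DMSO library of the same line. In HGC-27, hsa-miR-21-5p had 816189, 628715 and 1043496 counts with SAHA, and 1068043, 1315783 and 1429921 counts with DMSO. Scaled, these were 255050, 225611 and 236443 CPM with SAHA, against 262220, 330441 and 275756 CPM with DMSO. The groups did not overlap, but SAHA 1 lay close to DMSO 1, and DMSO 2 stood above the other two DMSO libraries. Groups that did not overlap were found for 57.9% of the 608 microRNAs tested in this line. The means were 239035 ± 14889.6 CPM with SAHA and 289472 ± 36119.7 CPM with DMSO (SD, n = 3 each). The log2 fold change was -0.28 (SE 0.104, 95% interval -0.51 to -0.05), and at an adjusted p of 0.0548 from edgeR's quasi-likelihood test it missed the threshold of 0.05, which 40.8% of all microRNAs passed. Without HGC-27 SAHA 2 it was -0.18 (adjusted p = 0.310 in the same test), without HGC-27 DMSO 2 it was -0.14 (adjusted p = 0.380), and with plain library totals -0.15 (adjusted p = 0.0532). It passed in 7 of 23 alternative settings, with DESeq2 (adjusted p = 0.0245) and with upper-quartile scaling (adjusted p = 0.00998) among them, as was the setting without AGS DMSO 3 (adjusted p = 0.0397, edgeR).

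In AGS, hsa-miR-21-5p had 833733, 870744 and 1069803 counts with SAHA, and 1438744, 1208318 and 852814 counts with DMSO. Scaled, these were 334832, 279936 and 348340 CPM with SAHA, against 400640, 402522 and 399218 CPM with DMSO. The DMSO libraries were nearly equal and lay above all SAHA libraries, and SAHA 2 was the lowest of the 6. Such separation was found for 38.7% of microRNAs in this line. The means were 321036 ± 36229 CPM with SAHA and 400793 ± 1657 CPM with DMSO (SD, n = 3 each), a log2 fold change of -0.32 (SE 0.104, 95% interval -0.55 to -0.09). The adjusted p of 0.0426 from edgeR's quasi-likelihood test put miR-21-5p among the 26.5% called in AGS, and among the 11.5% called lower. This call was lost in 12 of 23 alternative settings: it had an adjusted p of 0.109 with plain library totals, where the log2 fold change was -0.13, and of 0.0675 with upper-quartile scaling. Of these 12, 6 left out a library: AGS DMSO 1, AGS DMSO 3, AGS SAHA 2, HGC-27 DMSO 3, HGC-27 SAHA 1 or HGC-27 SAHA 3, with log2 fold changes of -0.35 to -0.26 and adjusted p of 0.0598 to 0.160 in edgeR. The change in AGS minus that in HGC-27 was -0.04 on the log2 scale (95% interval -0.37 to 0.28, edgeR adjusted p = 0.913), a test that called 1.81% of microRNAs, and -0.22 (adjusted p = 0.613) without HGC-27 SAHA 2.

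miR-21-3p, the passenger strand, fell in both lines, by more than the spread between libraries. In HGC-27, hsa-miR-21-3p had 1871, 1704 and 2941 counts with SAHA, and 4808, 4931 and 7060 counts with DMSO. Scaled, these were 585, 611 and 666 CPM with SAHA, against 1180.4, 1238 and 1361.5 CPM with DMSO. The highest SAHA library lay far below the lowest DMSO library, and each group varied little. The means were 621 ± 41.7 CPM with SAHA and 1260.1 ± 92.5 CPM with DMSO (SD, n = 3 each). The log2 fold change was -1.02 (SE 0.0924, 95% interval -1.23 to -0.82, edgeR quasi-likelihood adjusted p = 2.49e-05), so miR-21-3p was among the 19.1% of microRNAs called lower in HGC-27. Without HGC-27 SAHA 2 it was -0.95 (edgeR adjusted p = 3.78e-04).

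In AGS, hsa-miR-21-3p had 2492, 2884 and 2648 counts with SAHA, and 6247, 5463 and 3654 counts with DMSO. Scaled, these were 1000.8, 927 and 862 CPM with SAHA, against 1739.6, 1819.9 and 1710.5 CPM with DMSO. Again the groups lay far apart, with a narrow spread inside each. The means were 930.1 ± 69.3 CPM with SAHA and 1757 ± 56.6 CPM with DMSO (SD, n = 3 each), a log2 fold change of -0.92 (SE 0.0922, 95% interval -1.12 to -0.71, edgeR quasi-likelihood adjusted p = 7.88e-05). The call held in each of the 23 alternative settings in both lines. The change in AGS minus that in HGC-27 was 0.10 on the log2 scale (95% interval -0.18 to 0.39, edgeR adjusted p = 0.733), and -0.04 (adjusted p = 0.958) without HGC-27 SAHA 2. Over all 608 microRNAs the median log2 fold change was 0.08 in both lines.

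**Figure D1:**
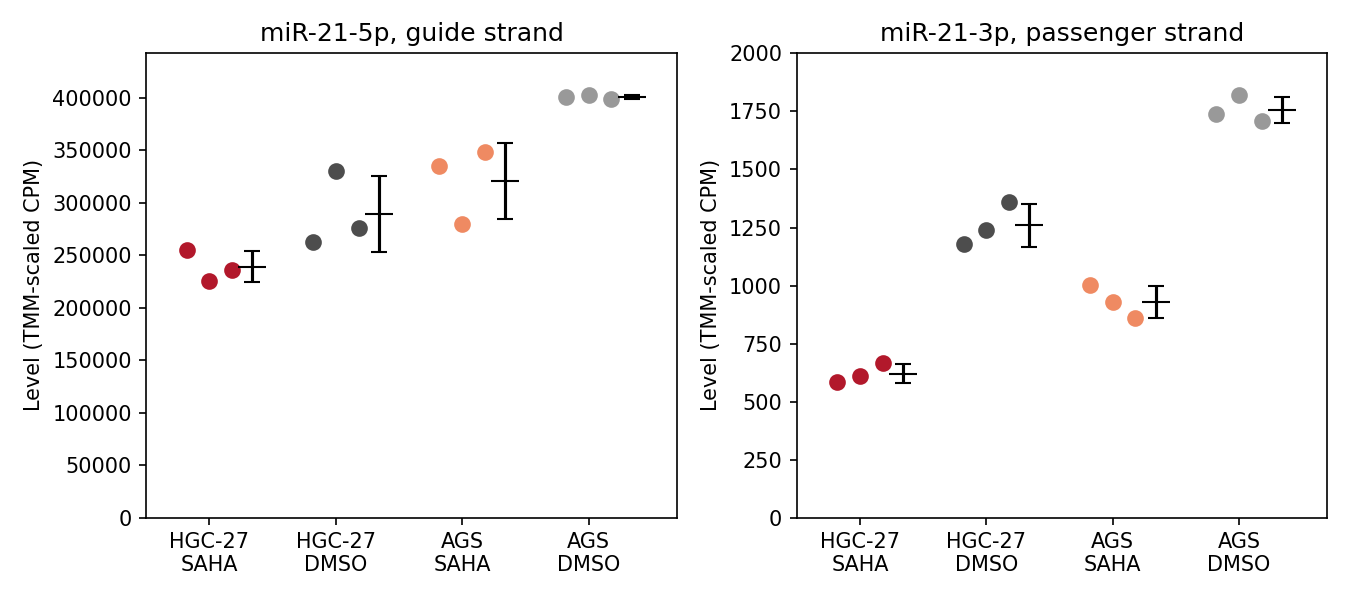
Levels of miR-21-5p (left) and miR-21-3p (right) in TMM-scaled CPM in each library (points, replicates 1 to 3 in order), with the mean ± SD of 3 libraries as a bar to the right of each group. In both panels and both lines all SAHA points lie below all DMSO points, with a wide gap for miR-21-3p and, in HGC-27, a narrow one for miR-21-5p.

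The plot of levels by library also shows the order of the 4 groups, which was the same for both strands at the top and bottom: AGS with DMSO was highest and HGC-27 with SAHA lowest. For miR-21-5p, AGS with SAHA (321036 CPM) came before HGC-27 with DMSO (289472 CPM), and the ranges of these neighbours overlapped. For miR-21-3p this order was turned round, with 1260.1 CPM in HGC-27 with DMSO and 930.1 CPM in AGS with SAHA, and those ranges did not overlap. By its mean level miR-21-3p was the 73rd of the 608 microRNAs tested, and its rank in single libraries was between 58 and 100.

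Both strands were higher in AGS than in HGC-27. With DMSO, the log2 difference of AGS over HGC-27 was 0.47 for miR-21-5p (SE 0.104, edgeR quasi-likelihood adjusted p = 0.00343) and 0.48 for miR-21-3p (SE 0.0916, edgeR adjusted p = 0.00132), beside 24.5% of microRNAs called higher in this comparison. With SAHA it was 0.43 for miR-21-5p (SE 0.104, edgeR adjusted p = 0.00679) and 0.58 for miR-21-3p (SE 0.0919, edgeR adjusted p = 4.16e-04), beside 22.9% called higher. The lines did not overlap for either strand under either treatment, as was found for 55.3% of microRNAs with DMSO and 54.1% with SAHA. Under SAHA the call for miR-21-5p was lost without HGC-27 SAHA 2 (0.29, edgeR adjusted p = 0.0839), HGC-27 SAHA 3 (0.36, adjusted p = 0.0573), AGS SAHA 1 (0.28, adjusted p = 0.0780) or AGS SAHA 3 (0.30, adjusted p = 0.0992). The calls for miR-21-3p held without each library.

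The strands did not fall equally: within the hairpin, SAHA shifted the counts toward the guide in both lines. This ratio is taken within each library, so depth and scaling cancel, but how well each sequence was captured was not calibrated, so the size of a ratio is not that of the RNA in the cell. In HGC-27 there were 436, 369 and 355 counts of miR-21-5p per count of miR-21-3p with SAHA, against 222, 267 and 203 with DMSO. In AGS there were 335, 302 and 404 with SAHA, against 230.3, 221 and 233 with DMSO. Each SAHA library exceeded each DMSO library of its line, and the DMSO libraries of both lines lay in the same range. As a share of both strands, miR-21-3p made up 0.260% ± 0.0276 with SAHA and 0.438% ± 0.0597 with DMSO in HGC-27, and 0.292% ± 0.0420 with SAHA and 0.436% ± 0.0122 with DMSO in AGS (SD, n = 3 each).

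The ratio was tested with edgeR's quasi-likelihood test on the counts of both arms over 184 hairpins, with a coefficient for each library. In HGC-27 it rose 1.68-fold with SAHA (log2 change 0.75, SE 0.154, 95% interval 0.42 to 1.08, edgeR adjusted p = 0.00240), and it stayed past the threshold in all 16 alternative settings. Without HGC-27 SAHA 2 the log2 change was 0.78 (edgeR adjusted p = 0.00878). In AGS it rose 1.51-fold (log2 change 0.59, SE 0.154, 95% interval 0.27 to 0.92, edgeR adjusted p = 0.0168). That call was lost with limma on log2 ratios (adjusted p = 0.0563) and without AGS DMSO 1 (0.60, adjusted p = 0.0541), AGS DMSO 2 (0.57, adjusted p = 0.0515) or AGS SAHA 3 (0.48, adjusted p = 0.0586). The direction was the same in each of these settings. As background, 11.4% of hairpins were called toward the 5p arm in HGC-27 and 6.52% in AGS, and groups did not overlap for 37% of hairpins in HGC-27 and 23.9% in AGS. The change in AGS minus that in HGC-27 was -0.16 on the log2 scale (95% interval -0.62 to 0.31, edgeR adjusted p = 0.878), where 1.09% of hairpins were called, and -0.19 (adjusted p = 0.861) without HGC-27 SAHA 2. With DMSO, the ratio of AGS over HGC-27 was -0.00 on the log2 scale (95% interval -0.33 to 0.32, edgeR adjusted p = 0.998), so a difference between the lines was not detectable while both strands differed in level.

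**Figure D2:**
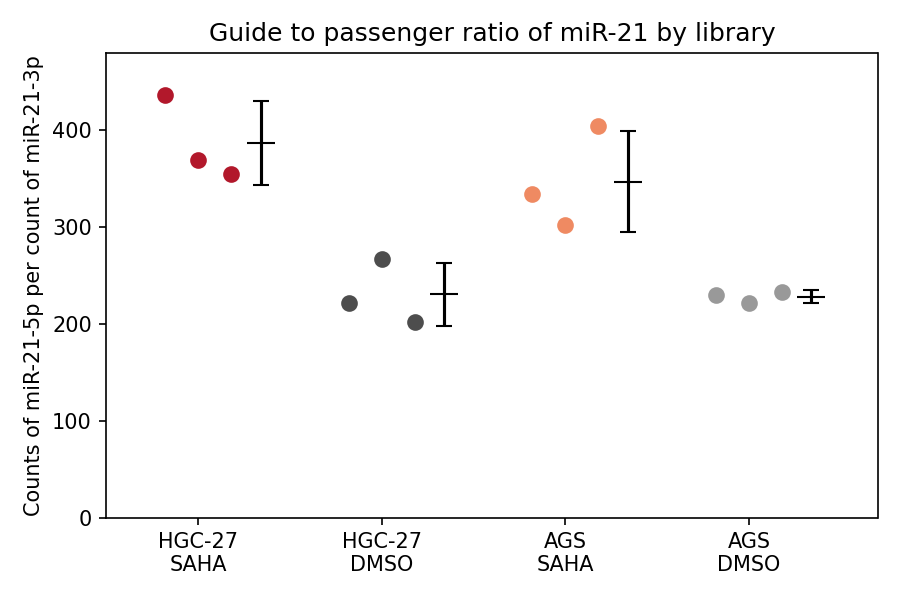
Counts of miR-21-5p per count of miR-21-3p in each library (points, replicates 1 to 3 in order), with the mean ± SD of 3 libraries beside each group. SAHA libraries lie between 302 and 436 and DMSO libraries between 203 and 267, in both lines.

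Among hairpins with both arms counted, the counts of mir-21 were one-sided. As a description of counts, uncalibrated between sequences, the mean log2 ratio of its major to its minor arm over the 12 libraries was 8.17, the 23rd highest of 184 hairpins, whose median was 4.11. When each hairpin is read as its major over its minor arm, mir-21 ranked 33rd of 184 for the shift toward the major arm in HGC-27 and 47th in AGS. The median log2 shift over all hairpins was 0.09 in HGC-27 and 0.16 in AGS. Of the 35 hairpins called in HGC-27 (19%), 27 moved toward the major arm, and of the 23 called in AGS (12.5%), 19 did. Over all 184 hairpins, called or not, 109 moved toward the major arm in HGC-27 and 117 in AGS. Hairpins that share a mature strand, such as mir-9-1, mir-9-2 and mir-9-3, were counted separately. The tallies in this paragraph are therefore not of independent members. Of the 19 called in both lines, 15 moved toward the major arm in both, mir-21 among them, and none in opposite directions. With HGC-27 SAHA 2 left out, 14 were called in both lines, of which 10 moved toward the major arm and none in opposite directions. With all 12 libraries, the others called toward the 5p arm in both lines were let-7b, let-7c, let-7e, let-7f-1, mir-125a, mir-181a-2, mir-181b-2, mir-26a-1, mir-374b and mir-99a. Of these others, only let-7c and mir-181a-2 were read singly without HGC-27 SAHA 2, and both kept their calls in both lines.

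Larger shifts than that of mir-21 were found for several hairpins whose arms both averaged at least 10 CPM over the 12 libraries. All calls named in this paragraph held without HGC-27 SAHA 2. The tumour suppressor let-7c shifted toward its 5p guide by 2.80 on the log2 scale in HGC-27 and by 1.81 in AGS (edgeR adjusted p = 8.40e-07 and 2.49e-05). In HGC-27 with SAHA its 3p arm averaged 4.08 CPM, below 10 CPM, so the shift there rests on low counts. The polycistronic mir-92a-1, whose major arm is 3p, shifted away from 5p, by -2.19 in HGC-27 and -1.89 in AGS. The opposite, a shift toward the minor arm, was largest for mir-181a-1, at -2.80 in HGC-27 and -2.77 in AGS, followed by mir-338 at -1.76 and -1.47. Toward 5p, the next were mir-7-1 (1.95) and mir-135b (1.33) in HGC-27 and mir-181a-2 (1.12) and mir-30c-1 (1.00) in AGS. miR-181a-5p, miR-7-5p, miR-30c-5p and miR-92a-3p are each listed for more than 1 hairpin, as are the 5p strands of let-7f-1, mir-181b-2 and mir-26a-1, so the ratios of all these hairpins are uncertain where the authors' counting could split the reads. The mir-21 hairpin is listed once and has no such partner.

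**Figure D3:**
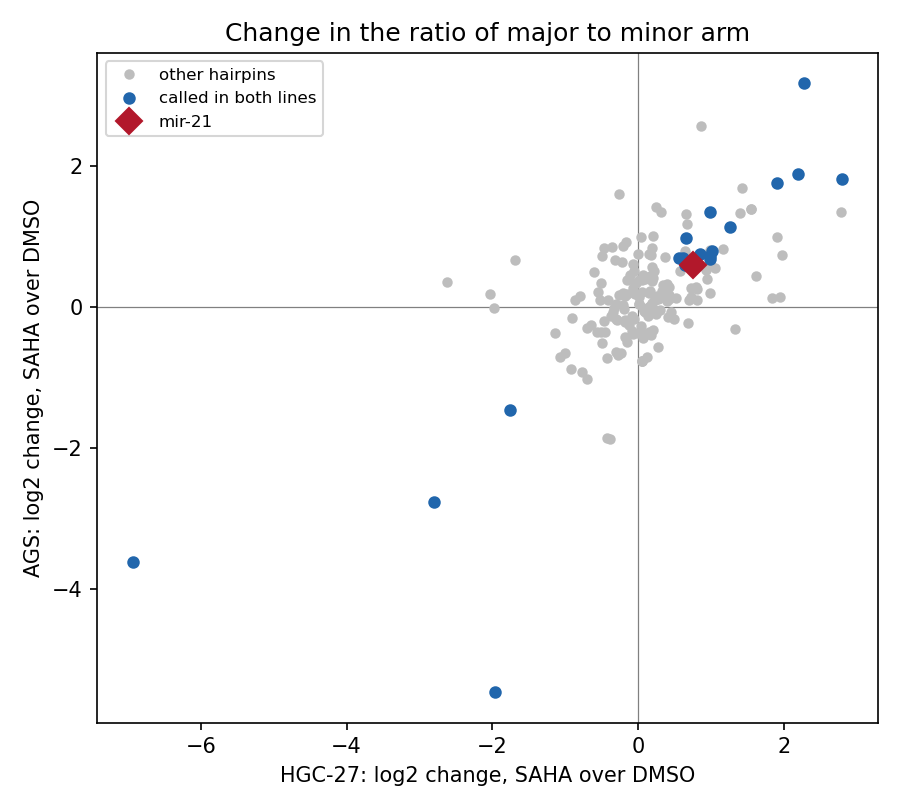
Log2 change (SAHA over DMSO) in the ratio of major to minor arm in HGC-27 (horizontal axis) and AGS (vertical axis) for 184 hairpins; blue marks the hairpins called in both lines by edgeR and the red diamond is mir-21. The diamond lies at 0.75 and 0.59, inside the upper right group of hairpins, and 4 hairpins called in both lines lie at the lower left.

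The levels of single strands were also split by arm. Minor arms had a median log2 fold change of -0.11 in HGC-27, with 49 of 176 called lower and 28 higher, while major arms had a median of -0.03, with 46 of 166 lower and 39 higher. In AGS, minor arms had a median of -0.12, with 35 of 176 lower and 16 higher, and major arms a median of -0.05, with 23 of 166 lower and 26 higher. The values for miR-21-3p, -1.02 and -0.92, lay below these medians. The lower quartiles of minor arms were -0.67 in HGC-27 and -0.55 in AGS, and miR-21-3p lay below them too.

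The microRNAs whose level followed each strand most closely over the 12 libraries differed between the strands. Among 406 microRNAs of at least 10 CPM on average, those with the highest Pearson r of log2 CPM with miR-21-3p were let-7c-3p (0.984), miR-335-3p (0.978), miR-125b-2-3p (0.949), miR-365a-5p (0.945) and miR-181a-2-3p (0.945). Of these 5, 4 are the minor arm of their hairpin, against 27.3% of the 406. With miR-21-5p the highest were miR-3613-5p (0.950), miR-452-5p (0.943), miR-27b-5p (0.935), miR-1283 (0.929) and miR-519a-5p (0.919), of which miR-27b-5p is a minor arm. The strands had r = 0.807 with each other. These coefficients share the 4 group means and the scaling of each library, and are a description.

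let-7c-3p, the passenger strand of let-7c, averaged 4.08 CPM with SAHA and 32.2 CPM with DMSO in HGC-27, and 14.0 CPM with SAHA and 61.9 CPM with DMSO in AGS. miR-335-3p, the major arm of its hairpin, averaged 453 CPM with SAHA and 978 CPM with DMSO in HGC-27, and 763 CPM with SAHA and 1382 CPM with DMSO in AGS. The 5 microRNAs nearest to miR-21-3p had log2 fold changes of -2.98 to -1.07 in HGC-27 and -2.14 to -0.57 in AGS. They were chosen for following miR-21-3p over the same libraries, so their lower level with SAHA and their order of groups were set by that choice. The 5 nearest to miR-21-5p, chosen in the same way, had -0.92 to -0.25 in HGC-27 and -1.14 to -0.24 in AGS. The 5 nearest to miR-21-3p stayed the same without HGC-27 SAHA 2 (r 0.933 to 0.979), while miR-1283 and miR-519a-5p left the 5 nearest to miR-21-5p.

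miR-21-5p took a smaller share of annotated counts with SAHA, where 1 hairpin was counted per name. Counting every hairpin of a name gives a larger total (3852427 in place of 3246952 in HGC-27 SAHA 1) and so lower shares. The differences between SAHA and DMSO kept their direction with that total. In HGC-27 the share was 25.1%, 23.7% and 24.5% with SAHA, against 27.1%, 28.5% and 26.0% with DMSO. In AGS it was 35.4%, 32.8% and 36.0% with SAHA, against 39.6%, 37.5% and 37.3% with DMSO. The groups did not overlap in either line. On levels such separation was found for 57.9% of microRNAs in HGC-27 and 38.7% in AGS. On shares it was not counted for other microRNAs. The exact (Clopper-Pearson) 95% intervals of single libraries reached 0.0367 to 0.0627 percentage points to each side, which covers counting error only. The mean share fell by 2.75 points in HGC-27 (24.5% ± 0.705 with SAHA, 27.2% ± 1.26 with DMSO) and by 3.42 points in AGS (34.7% ± 1.72 with SAHA, 38.1% ± 1.26 with DMSO; SD, n = 3 each). Each difference had p = 0.1 in a two-sided exact permutation test, the smallest that 3 against 3 libraries allow. With treatment permuted within lines, the mean difference of -3.09 points had an exact permutation p of 0.005, the smallest of 400 arrangements. The level of miR-21-5p scaled by plain library totals, nearly the same quantity as the share, was not called by edgeR in either line. Without HGC-27 SAHA 2 the difference was -2.39 points in HGC-27 (exact permutation p = 0.2) and -2.91 over both lines (exact permutation p = 0.01).

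The next microRNA in each library was well below miR-21-5p. The ratio of miR-21-5p to it was 1.99 to 7.45. The smallest gaps were in HGC-27 with SAHA, where miR-148a-3p came second. Its share averaged 11.5% with SAHA and 6.64% with DMSO in HGC-27, and 3.73% with SAHA and 2.60% with DMSO in AGS. That gain of 4.82 points in HGC-27 exceeded the loss of miR-21-5p, while its level was not called (log2 fold change 0.65, edgeR adjusted p = 0.225, and 0.34 in AGS, adjusted p = 0.572). miR-30a-5p averaged 4.34% with SAHA and 6.47% with DMSO in HGC-27, and 4.11% with SAHA and 4.22% with DMSO in AGS. miR-100-5p, second in every AGS library, lost 0.875 points in HGC-27 and gained 0.884 points in AGS. let-7i-5p fell by 0.854 points in HGC-27 and by 0.694 points in AGS, and let-7g-5p moved by 0.177 and 0.105 points. Shares of a fixed total are not independent, so a loss of one species is a gain of others.

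**Figure D4:**
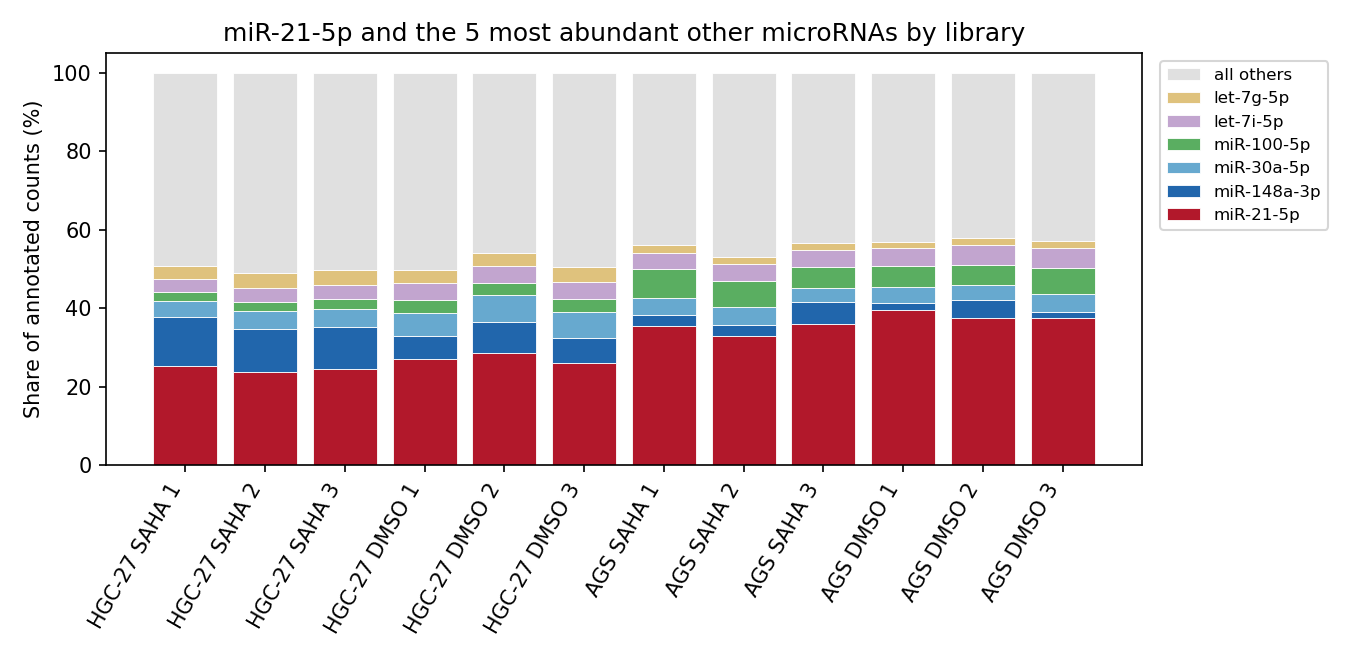
Share of all annotated counts (%) of miR-21-5p, the 5 most abundant other microRNAs and all others, stacked, for each of the 12 libraries. The red bars of miR-21-5p are lower with SAHA than with DMSO in both lines and higher in AGS than in HGC-27, and the blue bars of miR-148a-3p are largest in HGC-27 with SAHA.

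Other microRNAs known from the inducers of miR-21, the transcription factors AP-1, STAT3 and NF-kappaB, did not move as a block. Whether these factors had a part in the changes of miR-21 was not tested. Of the 6 listed, all tested, 2 were called higher and 3 lower in HGC-27, where 21.7% of all microRNAs were called higher and 19.1% lower. In AGS 1 was called higher and none lower, beside 15% and 11.5% of all. Their median log2 fold change was -0.09 in HGC-27 and 0.20 in AGS. miR-146b-5p averaged 527 CPM with SAHA and 223 CPM with DMSO in HGC-27, and 222 CPM with SAHA and 93.0 CPM with DMSO in AGS (1.24 and 1.26 on the log2 scale, edgeR adjusted p = 4.73e-04 and 6.75e-04). miR-146a-5p, a target gene of NF-kappaB that dampens inflammatory signalling, averaged 65.4 CPM with SAHA and 10.4 CPM with DMSO in HGC-27 (2.65, edgeR adjusted p = 0.00792), and 59.7 CPM with SAHA and 23.9 CPM with DMSO in AGS (1.34, adjusted p = 0.149). miR-181b-5p (-0.52), miR-221-3p (-0.21) and miR-222-3p (-0.44) were called lower in HGC-27 (edgeR adjusted p = 0.00228, 0.0475 and 0.00374), and in AGS their values were -0.30, 0.15 and 0.01, none of them called. Without HGC-27 SAHA 2 the HGC-27 calls of miR-221-3p (-0.14, edgeR adjusted p = 0.398) and miR-222-3p (-0.35, adjusted p = 0.0549) were lost, and miR-181b-5p was called lower in AGS (-0.38, adjusted p = 0.0417). miR-155-5p, at 1.85 to 2.92 CPM in the group means, was not called in either line.

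MicroRNA genes within 2000000 bases of MIR21 were read as a view of the surrounding chromosome. Counts were listed for MIR301A, MIR454 and MIR142, at 690045, 703394 and 1509948 bases. miR-454-3p, the most abundant of their products, averaged 471 CPM with SAHA and 705 CPM with DMSO in HGC-27 (-0.58, edgeR adjusted p = 0.0189), and 326 CPM with SAHA and 363 CPM with DMSO in AGS (-0.16, adjusted p = 0.537). Also called lower were miR-454-5p (-0.63, edgeR adjusted p = 0.0377) and miR-301a-5p (-0.87, adjusted p = 0.00248) in HGC-27 and miR-301a-3p (-1.12, adjusted p = 0.0485) in AGS. The products of MIR142, a gene of blood cells, averaged at most 23.9 CPM in any group and were not called. Of the 6 products tested, 3 were lower in HGC-27 and 1 in AGS, beside the 19.1% and 11.5% given above for all microRNAs. The HGC-27 calls of miR-454-3p (-0.51, edgeR adjusted p = 0.0756) and miR-454-5p (-0.45, adjusted p = 0.184) were lost without HGC-27 SAHA 2, when 73 of 644 microRNAs (11.3%) were called lower in HGC-27.

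**Figure D5:**
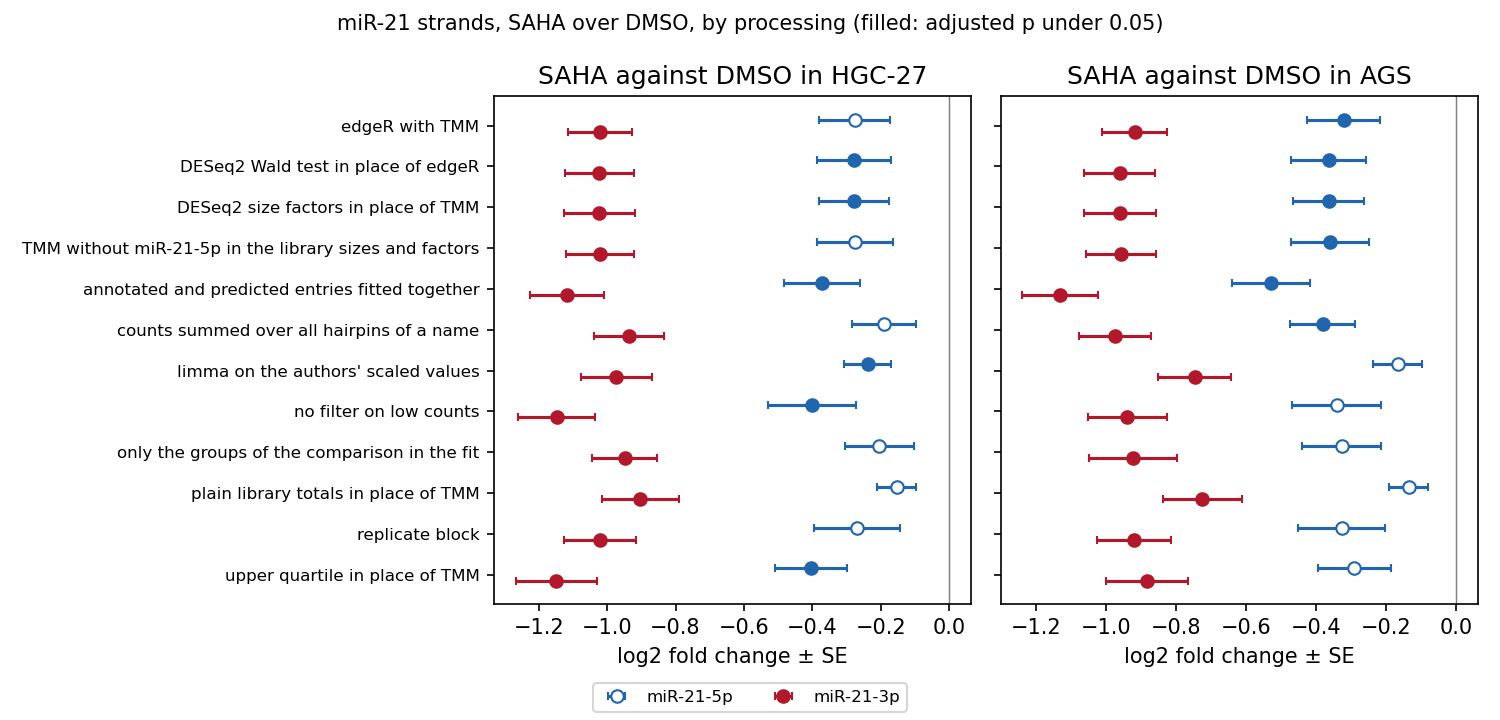
Log2 fold change ± SE (SAHA over DMSO) of miR-21-5p (blue) and miR-21-3p (red) in HGC-27 (left) and AGS (right) under edgeR with TMM and 11 other ways of processing, one per row; filled symbols have an adjusted p under 0.05. All red symbols are filled and lie between -1.15 and -0.72, while blue symbols lie between -0.53 and -0.13 and are filled in some rows only.

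The plot of fold changes by processing sets the strands side by side. miR-21-3p was called lower in all rows in both lines, and every value of miR-21-5p was below 0 whether or not it passed the threshold.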

How the data were processed

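Per the labels' protocols, TRIzol was used for total RNA and an NEBNext kit for the small RNA libraries. The submitters' processing notes name cutadapt and Novoalign 2.07.11. Build and microRNA release: not given in the sources used here. Counts per mature microRNA and hairpin, whole numbers deposited by the authors, were tested with blanks read as 0 (smallest listed count 2). A second deposited table holds a score, the authors' scaled values rounded to whole numbers, used only for limma.

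Of 2909 entries, 860 predicted ones were left out of the tests, and the hairpin with the highest total stood for each of 1906 names. Levels were tested with edgeR 4.0.16 (R 4.3.3; TMM, filterByExpr, quasi-likelihood test, 1 fit of 12 libraries, 8 residual degrees of freedom), Benjamini-Hochberg adjusted over 608 microRNAs. The threshold for a call was an adjusted p of 0.05. The arm ratio used the same test on the 5p and 3p counts of 184 hairpins, adjusted over those. Shares were taken over annotated counts with 1 hairpin per name. Alternatives used DESeq2 1.42.0, limma 3.58.1, other scalings, filters, entries, fits and denominators, and left out each library.

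The members, the lists and the rule for naming other microRNAs were chosen with earlier results of these data known. The rule took the seed sharers, the 5 nearest patterns, the 5 most abundant others, the 3 largest called arm shifts in each direction (both arms at 10 CPM or more), 6 microRNAs of shared inducers and neighbours within 2000000 bases.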

Additional observations from a re-analysis of the deposited data

How the results depend on the processing

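No called result on the 2 strands, their ratio or the share changed direction. For the other microRNAs and hairpins named, leaving out HGC-27 SAHA 2, chosen after seeing the data, was the only alternative read. Hairpins named only for their calls in both lines were given as counts in it. The called cell type markers were read with all 12 libraries only. miR-21-3p kept its calls in all 23 settings in each of the 4 comparisons between groups, with log2 fold changes of -1.15 to -0.90 in HGC-27 and -1.13 to -0.72 in AGS. miR-21-5p in HGC-27 passed the threshold with predicted entries added (-0.37), DESeq2 size factors (-0.28), the DESeq2 Wald test (-0.28), limma on the authors' scaled values (-0.24), no filter (-0.40) and upper-quartile scaling (-0.40), and leaving out single libraries gave -0.33 to -0.14. In AGS its call was lost with limma (-0.17), no filter (-0.34), only the groups compared in the fit (-0.33), plain totals (-0.13), upper-quartile scaling (-0.29) and the replicate block (-0.33), and leaving out libraries gave -0.46 to -0.26. For AGS over HGC-27 with SAHA it was lost with predicted entries added (0.26), and leaving out libraries gave 0.28 to 0.43. The arm ratio in AGS was lost with limma (0.59), and leaving out libraries gave 0.48 to 0.69. The cause of each lost or gained call was not tested. Plain totals moved the median of all microRNAs by 0.12 in HGC-27 and 0.19 in AGS (log2), and upper-quartile scaling moved it by -0.12 in HGC-27. A change of scaling moves all microRNAs by nearly the same amount, so it was set in advance that miR-21-5p moved with these medians.

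Counts of calls also moved. With predicted entries added, 432 were called for AGS over HGC-27 with DMSO and 44 for the difference between responses, against 271 and 11. That difference had 31 calls with DESeq2 and 27 with limma, and 2 to 20 without single libraries. Without single libraries, calls were 97 to 180 in AGS (97 without AGS DMSO 1, 100 without AGS SAHA 1, 104 without AGS SAHA 2) and 163 to 257 in HGC-27 (163 without HGC-27 DMSO 3), against 161 and 248. In AGS 91 were called higher, against 39 without AGS SAHA 1 and 49 without AGS DMSO 1 or with the replicate block. For the arm ratio they were 13 to 32 between lines with DMSO (13 without HGC-27 DMSO 3), 10 to 23 with SAHA (10 without HGC-27 SAHA 3) and 1 to 3 for the difference between responses, which had 0 with limma (16 of 184 at an unadjusted p under 0.05) and 2 with edgeR.

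Same-numbered libraries did not deviate together (r -0.31 to 0.07), so the numbers were not read as pairs. With the replicate block, calls were 164 in HGC-27, 92 in AGS and 1 for the difference between responses, and for the arm ratio 15 in AGS and 1 for the difference. The share over both lines had an exact sign-flip p of 0.03125 with this block, the smallest that this test can give. As the block joins same-numbered libraries, it is given as an alternative only.

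Counts of miR-590-5p were at most 17 in any library, while the lowest were 1704 for miR-21-3p and 628715 for miR-21-5p. An effect of depth was not tested. Blanks were read as 0, and intervals of shares cover counting error only.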
